A study of Mus musculus with 203 samples.

Results

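Airway RNA of mice that received house dust mite extract (HDM), cigarette smoke (CS) and dexamethasone (DEX) was compared with airway RNA of untreated mice, to see which transcripts still differed from control levels in spite of the steroid. The libraries titled 11-Airway-HDM.CS.DEX and 11-Airway-PBS.AIR were taken, 10 of each, and these 20 are 9.85% of the libraries of the series. All 20 came from female Balb/C mice aged 18 to 20 weeks that were sampled at 11 weeks, and the strain is wild type per the methods of the study. HDM.CS.DEX mice were given HDM through the nose on 5 days per week for 3 weeks and then 3 times per week in weeks 4 to 11, CS on 5 days per week for 8 weeks, and DEX in week 11, for which the labels give no dose or route. PBS.AIR mice received intranasal phosphate buffered saline (PBS) and breathed normal air, with neither HDM, CS nor DEX. The group that shows the same exposures without the steroid is HDM.CS (10 airway libraries), and the one with the steroid alone is PBS.AIR.DEX (10). The airways were freed from the lung by blunt dissection, each library carries a code of its own, and the labels do not say that each came from a separate mouse, so the p-values describe the spread between libraries.

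The 20 libraries held 23368612 to 34962379 estimated counts each (median 29570000). No pair within a group was as alike as sampling noise would make it. The label of the tissue was checked with 12 airway markers, such as Scgb1a1, Foxj1 and Acta2, whose summed level was 43920 to 65220 CPM (estimated counts relative to the library total, scaled between libraries by the TMM method) in PBS.AIR airways against 16800 to 30000 CPM in PBS.AIR parenchyma, without overlap. In HDM.CS.DEX airways the same sum was 16980 to 35850 CPM, which overlaps the parenchyma of either group. Most of this sum came from Scgb1a1, whose levels are given below, so it largely follows that 1 gene. Of the 12 markers, 1 was called higher and 3 lower in HDM.CS.DEX than in PBS.AIR airways. The sum of 10 alveolar type II cell markers moved the other way, from 7606 to 25420 CPM (median 15300) in PBS.AIR to 17470 to 31260 CPM (median 25360) in HDM.CS.DEX airways, with overlap. The sum of 14 cardiac muscle markers was 426 to 4761 CPM (median 2047) against 196.8 to 1662 CPM (median 716), and that of 11 adipose markers 328 to 2911 CPM (median 633) against 78.1 to 1114 CPM (median 195.9), both with lower medians in the treated group and overlap. In bulk tissue, fewer cells of a type and less RNA per cell cannot be told apart. For several gene groups, counts are therefore also given from a fit with these 3 marker sums (alveolar type II, cardiac muscle and adipose) as covariates, which was added after the data had been seen. The PBS.AIR replicates 1 and 4 stood apart, the first with high adipose and squamous epithelial genes and the fourth with high lymphocyte genes, and counts without both libraries are given in the closing section. These were not the only libraries of unlike makeup. PBS.AIR replicates 1, 4, 7 and 8 had alveolar type II sums of 7606 to 8586 CPM, and the other PBS.AIR libraries 14710 to 25420 CPM. Replicates 7 and 8 also had high adipose sums (1720 and 1999 CPM). Leaving out replicates 1 and 4 does not test this split.

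HDM is an inhaled allergen that draws eosinophils, lymphocytes, neutrophils and macrophages into the airway wall and turns epithelial cells towards mucus secretion, while cigarette smoke adds oxidants and ligands of the aryl hydrocarbon receptor and fills the airspaces with macrophages and neutrophils. Dexamethasone binds the glucocorticoid receptor, which represses many cytokine genes in lymphocytes and antigen-presenting cells and prolongs the survival of neutrophils. Airway disease with neutrophils and macrophages is known for a poorer response to corticosteroids than eosinophilic disease.

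Of 18015 genes tested with limma-voom, 926 were higher in HDM.CS.DEX than in PBS.AIR airways (5.14% of the genes tested) and 931 were lower (5.17%), at an adjusted p-value under 0.05 and a log2 fold change (log2FC) of 1 or more in either direction, and every call given here used these limits. Without the limit on log2FC, 7510 genes passed, 3768 of them higher. The median log2FC was -0.02 over all genes, 1.69 over the genes called higher and -1.40 over those called lower. All 10 HDM.CS.DEX libraries lay above all 10 PBS.AIR libraries for 786 genes (4.36%) and below them for 362 (2.01%), and 471 of the genes called higher (50.9%) and 218 of those called lower (23.4%) were separated in this way. Immunoglobulin or T cell receptor segments made up 16.5% of the genes called higher and 0 of those called lower, and 670 and 845 genes coded for other proteins. On the first principal component of the 500 most variable genes, which held 60.05% of the variance of the 20 libraries, PBS.AIR libraries scored -39.87 to -19.60 and HDM.CS.DEX libraries 21.14 to 35.29.

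The steroid itself was tested in the same fit as HDM.CS.DEX less HDM.CS. It left 12 genes higher (0.0666% of the genes tested) and 315 lower (1.75%), while HDM.CS less PBS.AIR called 1270 higher (7.05%) and 1007 lower (5.59%). These comparisons share libraries with the one described here, so their values are set side by side and no overlap between them is given. Where a gene list had 0 calls with limma-voom, the members at an unadjusted p under 0.05 are counted beside it, and edgeR's quasi-likelihood test and DESeq2 also gave 0 for that list unless stated.

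Genes of lipid-laden macrophages, the large foamy cells that take up debris and surfactant, stayed far above control. Of 16 genes of this list that were tested, 11 were called higher and 0 lower, against 5.14% and 5.17% of all genes, with a median log2FC of 2.03 against -0.02. Gpnmb (ENSMUSG00000029816.8, chromosome 6 from 49036546 to 49070929, plus strand), a membrane glycoprotein of lysosome-rich macrophages, was at 9.94 to 34.7 CPM (median 22.9) in PBS.AIR and at 396 to 1206 CPM (median 668) in HDM.CS.DEX airways (log2FC 4.99 ± 0.29 (SE), adjusted p = 2.81e-24). Mmp12 (ENSMUSG00000049723.10, chromosome 9 from 7344381 to 7369499, plus strand), the macrophage elastase linked to emphysema, was at 11.1 to 43.4 CPM (median 27.8) and 262 to 765 CPM (median 503) (log2FC 4.26 ± 0.28 (SE), adjusted p = 2.02e-21), and Cd68, a lysosomal protein of macrophages, at 21.3 to 50 CPM (median 35.1) and 144.5 to 390.1 CPM (median 250.3) (log2FC 2.81 ± 0.20 (SE), adjusted p = 3.53e-20). For each of these 3 genes the lowest HDM.CS.DEX library lay above the highest PBS.AIR library. Trem2, a lipid receptor (log2FC 3.36), the cathepsin gene Ctsk (2.92), the proton pump subunit gene Atp6v0d2 (2.73) and Lgals3, which codes for galectin-3 (2.197), were also higher in every HDM.CS.DEX library than in any PBS.AIR library. Against HDM.CS airways, 0 of the 16 genes were called higher and 1 was called lower, which was Spp1, the gene of osteopontin (log2FC -1.12, adjusted p = 0.0297). Gpnmb did not pass this test (0.52, 95% confidence interval -0.09 to 1.13), and Mmp12 passed it with a change short of the fold limit (log2FC -0.97 ± 0.31 (SE), adjusted p = 0.0394). With the 3 marker sums as covariates, 11 of the 16 genes were called higher against PBS.AIR. The steroid alone (PBS.AIR.DEX less PBS.AIR) called 3 of the 16 higher and 1 lower, against 0.477% and 1.60% of all genes. In that comparison 8 were higher and 2 lower at an adjusted p-value under 0.05 (median 0.48). Part of the excess over PBS.AIR was therefore also seen without HDM or CS.

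**Figure D1:**
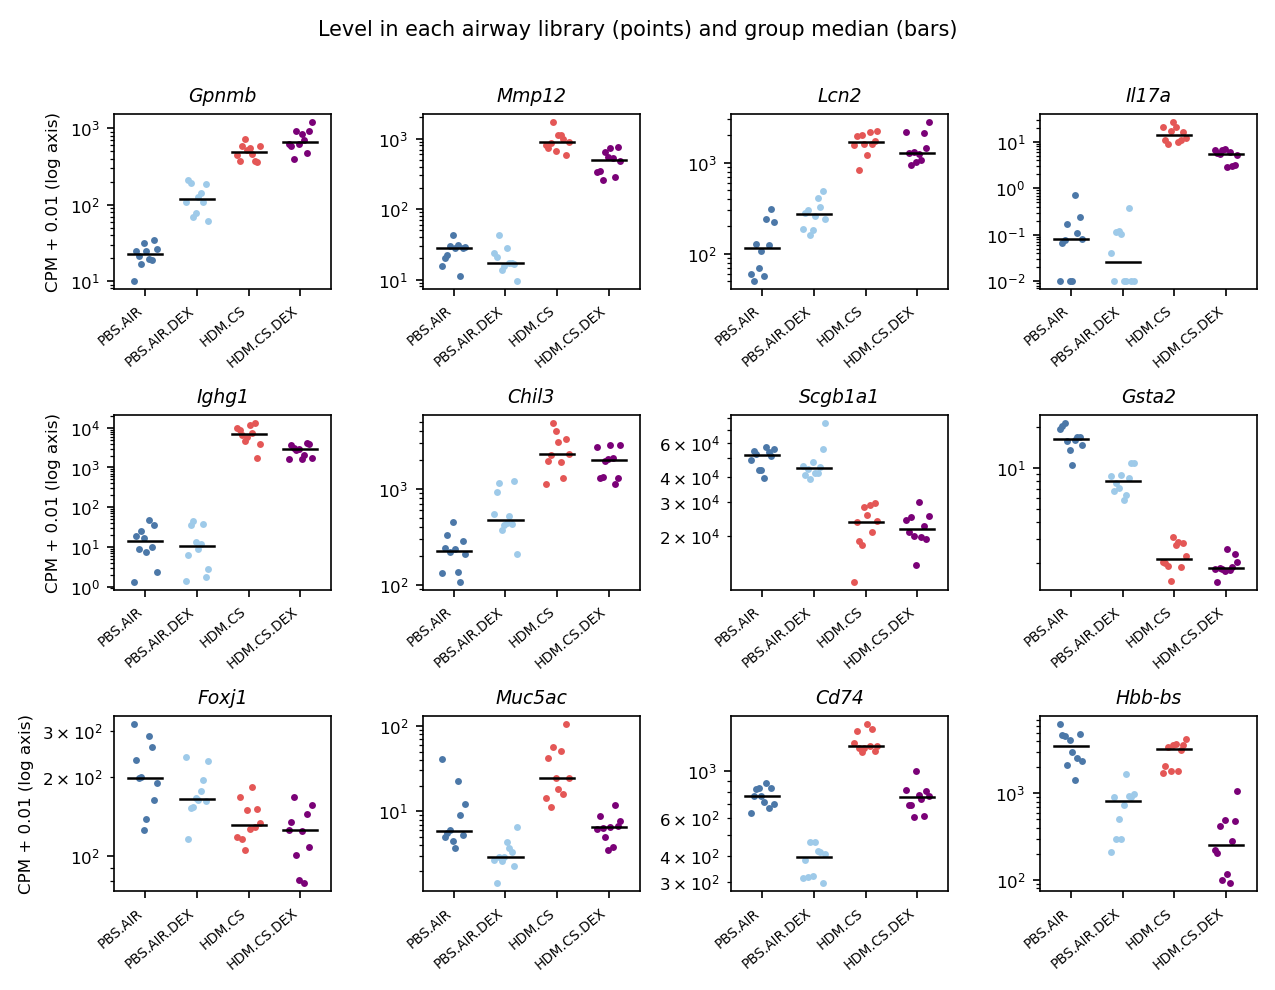
Each point is 1 airway library and each panel 1 gene, with CPM on a log axis and the groups PBS.AIR, PBS.AIR.DEX, HDM.CS and HDM.CS.DEX side by side (10 libraries each; bars mark medians). Gpnmb, Mmp12, Lcn2, Il17a, Ighg1 and Chil3 lie higher and Gsta2, Scgb1a1 and Hbb-bs lower in every HDM.CS.DEX library than in any PBS.AIR library, while Muc5ac and Cd74 overlap.

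Neutrophil genes stayed high as well. The list of chemokines, receptors and granule proteins had 18 genes tested, of which 15 were called higher and 1 lower (median log2FC 2.203), and 0 were called in either direction against HDM.CS (3 lower at an unadjusted p under 0.05). Lcn2 (ENSMUSG00000026822.10, chromosome 2 from 32384633 to 32388252, minus strand), a siderophore-binding protein of neutrophils and stressed epithelium, was at 50.1 to 313 CPM (median 116.8) in PBS.AIR and 953 to 2783 CPM (median 1288) in HDM.CS.DEX airways (log2FC 3.66 ± 0.26 (SE), adjusted p = 3.07e-20). The acute phase gene Saa3 was at 5.59 to 66.2 CPM (median 14.9) and 243 to 512 CPM (median 341) (log2FC 4.48 ± 0.36 (SE), adjusted p = 1.31e-17), again with no overlap. Cxcr2 (2.29), a chemokine receptor gene, and Csf3r (2.23), the gene of the receptor for granulocyte colony-stimulating factor, are expressed by neutrophils, and both were higher in every treated library. Of the granule genes, S100a8 (2.33), Mmp8 (2.72) and Mpo (2.45) were called higher with overlap between the groups. Ppbp, a platelet chemokine, was called lower (-1.75).

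The ligands of Cxcr2 lie near each other on chromosome 5. Cxcl5 was at 1.54 to 23 CPM (median 7.87) in PBS.AIR and 35.5 to 134.5 CPM (median 68.8) in HDM.CS.DEX airways (log2FC 3.19 ± 0.50 (SE), adjusted p = 1.54e-07), and Cxcl1 at 3.7 to 7.57 CPM (median 4.73) and 13 to 41.2 CPM (median 24.5) (log2FC 2.36 ± 0.38 (SE), adjusted p = 4.16e-07). Cxcl2 (2.14) and Cxcl3 (1.98) were called higher with overlap. Their promoters are shown because members of this group moved together and NF-kappaB, a factor that the glucocorticoid receptor represses, binds kappaB motifs. The letters GGGNNTTTCC, where N is any base, were searched on both strands of the 250 bases before the start of each gene. They occur in 1.41% of 32851 promoters in the RefSeq table (GRCm38.p6) and in 3 of the 16 genes of the neutrophil list that the table holds, Cxcl1, Cxcl2 and Cxcl3. A match is a description and not evidence of binding. Capitals mark the matches in the 2 promoters shown, of Cxcl1 (chr5:90890995-90891244, plus strand) and Cxcl2 (chr5:90903649-90903898, plus strand).
Cxcl1: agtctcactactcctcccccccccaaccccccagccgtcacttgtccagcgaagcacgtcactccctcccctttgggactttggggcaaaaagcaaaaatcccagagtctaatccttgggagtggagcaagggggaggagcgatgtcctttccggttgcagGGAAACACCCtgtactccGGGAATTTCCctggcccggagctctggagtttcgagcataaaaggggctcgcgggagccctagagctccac
Cxcl2: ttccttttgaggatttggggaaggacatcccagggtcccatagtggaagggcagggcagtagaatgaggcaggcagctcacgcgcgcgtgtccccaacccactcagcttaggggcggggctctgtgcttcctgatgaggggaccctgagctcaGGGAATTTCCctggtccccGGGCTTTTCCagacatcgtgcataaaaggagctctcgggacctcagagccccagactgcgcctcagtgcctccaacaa
Each of these holds 2 matches and the promoter of Cxcl3 holds 1. Against HDM.CS, Cxcl1 differed by a log2FC of 0.03, 95% confidence interval -0.51 to 0.58, and Cxcl3 by -0.996 (adjusted p = 0.0466), just short of the fold limit.

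Interleukin-17, which induces such chemokines in epithelium, was among the largest rises that remained, although the steroid lowered it. Il17a (ENSMUSG00000025929.4, chromosome 1 from 20730905 to 20734496, plus strand) was at 0 to 0.721 CPM (median 0.0697) in PBS.AIR, 9 to 26.6 CPM (median 14.2) in HDM.CS and 2.86 to 7.17 CPM (median 5.61) in HDM.CS.DEX airways. All treated libraries lay above all PBS.AIR libraries (log2FC 5.98 ± 0.79 (SE), adjusted p = 2.18e-09), and the fall against HDM.CS passed the test too (log2FC -1.57 ± 0.26 (SE), adjusted p = 8.54e-06). Il17f showed the same order, with log2FC 5.41 against PBS.AIR and -1.79 against HDM.CS (adjusted p = 1.71e-07). The other leading rises by the rule for named genes were Awat1, a wax ester synthase gene (log2FC 7.34), Gm14461 (no PBS.AIR library held more than 3 counts, so at least 15.2-fold higher), Tm4sf19 (4.81), a tetraspanin-like gene, Cd200r2 (4.71), an activating receptor of myeloid cells, and the transporter gene Slc6a12 (4.66). Of these genes, Awat1 and Cd200r2 were also higher with the steroid alone (PBS.AIR.DEX less PBS.AIR, log2FC 4.67 and 4.19), as was Gpnmb (2.44). That comparison called 86 genes higher (0.477% of the genes tested) and 289 lower (1.60%).

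Genes of the IL-1 family and of the factor PU.1 followed the same course. Of 14 IL-1 and inflammasome genes, 6 were called higher and 0 lower against PBS.AIR, and 0 were called against HDM.CS (3 lower unadjusted). Il1b was at 8.45 to 28.5 CPM (median 14.8) in PBS.AIR and 30.1 to 71.8 CPM (median 44.7) in HDM.CS.DEX airways (log2FC 1.55 ± 0.27 (SE), adjusted p = 2.80e-06), and the decoy receptor gene Il1r2 at 0.686 to 3.56 CPM (median 1.32) and 8.45 to 25.4 CPM (median 13.5) (log2FC 3.19 ± 0.34 (SE), adjusted p = 1.75e-12). The cytokine gene Tnf (1.57) and the inflammasome sensor Nlrp3 (1.43) were called higher with overlap. With the 3 marker sums as covariates, 3 of the 14 genes were called higher. Spi1, which codes for PU.1, the master factor of myeloid cells, was at 11.2 to 32.9 CPM (median 19) and 27.6 to 55.2 CPM (median 42.4) (log2FC 1.05 ± 0.18 (SE), adjusted p = 9.76e-07), and the 4 genes set beside it, Il1rn (2.71), Ptafr (2.13), Itgax (2.08) and Clec7a (2.21), were higher in every treated library. Against HDM.CS, 0 of these 5 genes were called, all 5 were lower at an unadjusted p under 0.05, and Spi1 did not pass the adjusted test (-0.38, 95% confidence interval -0.70 to -0.05). Complement genes were called higher for 6 of 16 and lower for 1 (median 0.53), and 0 were called against HDM.CS (7 lower unadjusted). The receptor genes C3ar1 (2.56) and C5ar1 (1.32) and the 3 chains of C1q, C1qa (1.17), C1qb (1.12) and C1qc (1.15), which tissue macrophages make, were higher without overlap, and Cfd, an adipose product also known as adipsin, was lower (-1.87).

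Macrophage genes of the alternatively activated and chitinase list split. Of 15 genes, 5 were called higher and 3 lower (median 0.47), and 3 were called lower against HDM.CS. Chil3, a secreted chitinase-like protein of macrophages, was at 106.7 to 454 CPM (median 228) in PBS.AIR and 1131 to 2884 CPM (median 2008) in HDM.CS.DEX airways (log2FC 3.11 ± 0.38 (SE), adjusted p = 1.19e-10), and Chil1 at 274 to 919 CPM (median 505) and 1405 to 2533 CPM (median 1885) (log2FC 1.88 ± 0.19 (SE), adjusted p = 5.12e-13). Neither group overlapped the other for these genes, and neither gene passed the test against HDM.CS (Chil3 -0.35, 95% confidence interval -1.21 to 0.51). On the low side were lectin and scavenger receptors of resident macrophages and dendritic cells. Mgl2 was at 25.9 to 54.1 CPM (median 36.2) in PBS.AIR and 5.59 to 20.6 CPM (median 8.62) in HDM.CS.DEX (log2FC -1.87 ± 0.20 (SE), adjusted p = 3.61e-12), Clec10a had a log2FC of -1.34, both without overlap, and Cd163 one of -1.68 with overlap. The largest falls under the naming rule were in the lectin genes Cd209g and Cd209f. Cd209g was at 5.56 to 24.8 CPM (median 9.22) in PBS.AIR, 0.157 to 1.62 CPM (median 0.844) in HDM.CS and 0.0657 to 1.99 CPM (median 0.361) in HDM.CS.DEX airways (log2FC -4.92 ± 0.52 (SE), adjusted p = 1.04e-12), and Cd209f had a log2FC of -4.16. These 2 genes belong to 1 gene family, and the counting could have shared reads between them. Fabp1, a fatty acid binding protein, was also among them (-3.91).

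Antibody genes were among the largest rises. Of 10 constant regions tested, 8 were called higher and 0 lower, with a median log2FC of 3.19. Ighg1 (ENSMUSG00000076614.3, chromosome 12 from 113325240 to 113330523, minus strand), the class that type 2 responses favour, was at 1.27 to 48.2 CPM (median 13.7) in PBS.AIR, 1731 to 12980 CPM (median 6900) in HDM.CS and 1604 to 4115 CPM (median 2897) in HDM.CS.DEX airways (log2FC 7.84 ± 0.61 (SE), adjusted p = 3.04e-18). The lowest treated library lay far above the highest control library. Igha (3.38), the kappa chain gene Igkc (3.38) and Ighg2b (4.00) were higher without overlap, and of these Ighg2b fell against HDM.CS (log2FC -1.51 ± 0.42 (SE), adjusted p = 0.0119). Ighe held 3 counts over all PBS.AIR libraries and 83 over all HDM.CS.DEX libraries, a ratio of 27.9 (95% counting interval 9.21 to 137.9, covering counting error only). The genes of antibody-secreting cells moved with them. Jchain, which joins antibody chains, was at 103.5 to 636 CPM (median 187.7) and 1145 to 2689 CPM (median 1735) (log2FC 3.05 ± 0.36 (SE), adjusted p = 7.97e-11), and Mzb1 (2.38) and Tnfrsf17 (1.73) were also higher in every treated library. Genes of the earlier B cell stages behaved differently and are described with the genes that the steroid lowered.

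Among genes that answer to smoke, the aryl hydrocarbon receptor (AHR) list had 14 genes tested, of which 3 were called higher and 1 lower (median 0.22), and 0 were called against HDM.CS (2 higher and 4 lower unadjusted). Ahrr, the repressor induced by the receptor, was at 0.194 to 0.794 CPM (median 0.428) in PBS.AIR and 1.05 to 2.49 CPM (median 1.67) in HDM.CS.DEX airways (log2FC 1.91 ± 0.26 (SE), adjusted p = 4.65e-09) with no overlap. Cyp1a1, the classical target, was at 2.94 to 10.7 CPM (median 5.21) and 3.45 to 119.4 CPM (median 18.1) (log2FC 2.21 ± 0.72 (SE), adjusted p = 0.00915), with a wide spread among treated libraries and overlap. Smoke under the steroid (PBS.CS.DEX less PBS.AIR.DEX), a comparison of other libraries that called 0.594% of the genes higher and 62 genes lower (0.344%), gave 2.79 for Ahrr and 2.76 for Cyp1a1, and it called 6 of the 14 genes higher. The letters GCGTG, the core of the dioxin response element, occur on either strand in the 250 bases upstream of 5 of the 12 genes of the list held in the RefSeq table, Ahrr, Cyp1a1, Cyp1b1, Cyp2b10 and Tiparp, and in 28.2% of all 32851 promoters, so that a match is common. The promoters of Ahrr (chr13:74292332-74292581, minus strand) and Cyp1a1 (chr9:57697363-57697612, plus strand) are shown as those of the 2 members with the largest rises, with matches in capitals.
Ahrr: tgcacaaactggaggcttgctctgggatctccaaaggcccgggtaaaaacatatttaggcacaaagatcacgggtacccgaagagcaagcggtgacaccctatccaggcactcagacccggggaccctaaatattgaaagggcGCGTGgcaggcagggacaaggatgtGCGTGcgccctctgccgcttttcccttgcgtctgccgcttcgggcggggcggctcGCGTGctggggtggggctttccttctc
Cyp1a1: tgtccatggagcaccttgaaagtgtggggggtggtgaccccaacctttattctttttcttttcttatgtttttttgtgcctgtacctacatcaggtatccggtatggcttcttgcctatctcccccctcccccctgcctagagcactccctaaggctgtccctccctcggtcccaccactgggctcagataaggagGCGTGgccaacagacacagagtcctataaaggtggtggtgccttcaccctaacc
Ahrr holds 3 matches and Cyp1a1 holds 1.

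The antioxidant list under the factor NRF2 had 2 genes called higher and 3 lower of 20 (median -0.15). The cystine transporter gene Slc7a11 (2.52) and the haem oxygenase gene Hmox1 (1.73), which macrophages also induce, were higher without overlap. The members that fell were glutathione transferases of the alpha class. Gsta2 (ENSMUSG00000057933.6, chromosome 9 from 78331018 to 78355788, minus strand) was at 10.5 to 21.2 CPM (median 16.4) in PBS.AIR, 5.76 to 10.8 CPM (median 8.03) in PBS.AIR.DEX, 1.45 to 3.08 CPM (median 2.12) in HDM.CS and 1.42 to 2.5 CPM (median 1.8) in HDM.CS.DEX airways (log2FC -3.10 ± 0.21 (SE), adjusted p = 9.79e-21). The HDM.CS and HDM.CS.DEX libraries thus lay in the same low range, and the 10 treated libraries did not reach the PBS.AIR libraries. Gsta1 (-2.21) and Gsta4 (-1.01) were also called lower, and the reads of these related genes may have been shared out between copies.

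In the epithelium, the genes of club cells, the secretory and detoxifying cells of small airways, stayed low. Of 10 genes, 7 were called lower and 1 higher (median log2FC -1.17). Scgb1a1 (ENSMUSG00000024653.2, chromosome 19 from 9083636 to 9087958, minus strand), the club cell secretory protein, was at 39890 to 57150 CPM (median 52040) in PBS.AIR and 14290 to 30010 CPM (median 21870) in HDM.CS.DEX airways (log2FC -1.19 ± 0.16 (SE), adjusted p = 5.22e-09), and Cyp2f2, a cytochrome of these cells, at 2641 to 5034 CPM (median 4061) and 929.8 to 1853 CPM (median 1554) (log2FC -1.40 ± 0.13 (SE), adjusted p = 2.90e-14). Both were lower in every treated library, as were Gsta3 (-1.51) and Aldh1a1 (-1.16). Against HDM.CS, Scgb1a1 differed by a log2FC of -0.03, 95% confidence interval -0.35 to 0.29, and the 1 member called in that test was Retnla, the resistin-like gene that macrophages make too, which was lower (-1.25) and had been the member above PBS.AIR (1.16). Ciliary genes moved as a block by less than the fold limit. All 14 tested had an adjusted p-value under 0.05 and were lower, 0 reached the limit (1 with DESeq2), and the median was -0.79, with -0.02 and 0 calls against HDM.CS (0 unadjusted). Foxj1, the factor that drives ciliation, was at 126.2 to 319 CPM (median 199.4) and 78.5 to 167.7 CPM (median 125.4) (log2FC -0.78 ± 0.18 (SE), adjusted p = 2.97e-04). Beside these falls stands the higher alveolar sum given above, while the lower airway marker sum is mostly Scgb1a1 itself. With the 3 marker sums as covariates, 4 of the 10 club cell genes were called lower and 2 higher (median -0.86), and the median of the ciliary genes was -0.40.

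Ion transport genes of the airway surface went the other way or did not pass. Of 11 genes, 2 were called higher and 0 lower, Slc26a9 (1.58) and the chloride channel gene Cftr (1.38). Slc26a4 (ENSMUSG00000020651.7, chromosome 12 from 31519827 to 31559969, minus strand), which codes for the anion exchanger pendrin and was listed with the mucus genes, was at 0.97 to 6.02 CPM (median 4.39) in PBS.AIR, 6.88 to 18.8 CPM (median 11.6) in PBS.AIR.DEX, 36.7 to 143.3 CPM (median 76.7) in HDM.CS and 39.2 to 114.7 CPM (median 70.7) in HDM.CS.DEX airways (log2FC 4.17 ± 0.46 (SE), adjusted p = 7.46e-12). Every treated library lay above every PBS.AIR library, and the change against HDM.CS was -0.12, 95% confidence interval -0.69 to 0.46. Matrix genes were called higher for 5 of 21 and lower for 1 (median 0.42). Against HDM.CS, 2 of the 21 were called lower (median -0.11). With the steroid alone 1 was called higher, and 8 were higher at an adjusted p-value under 0.05 (median 0.28). Against PBS.AIR, Col24a1, a fibrillar collagen gene, had the largest change (log2FC 3.35 ± 0.34 (SE), adjusted p = 3.75e-13) and was higher in every treated library. The others called higher were the crosslinking enzyme gene Lox (1.26), Tnc (1.31), the protease inhibitor gene Timp1 (1.82) and the basement membrane gene Col4a1 (1.11). Col14a1 was lower without overlap (-1.16). Smooth muscle genes gave 0 calls among 15 (4 lower unadjusted), with a median of -0.38, and Acta2, the muscle actin, did not pass (-0.23, 95% confidence interval -0.78 to 0.32).

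Mast cell genes were called lower for 5 of 12 and higher for 1 (median -0.66), and 0 were called against HDM.CS (2 higher and 1 lower unadjusted). The proteases did not move together. Mcpt4, a chymase of connective tissue mast cells, was at 4.01 to 23 CPM (median 6.69) in PBS.AIR and 0.558 to 4.3 CPM (median 1.72) in HDM.CS.DEX airways (log2FC -2.30 ± 0.48 (SE), adjusted p = 6.38e-05), and Cma1 was lower too (-1.67), whereas Mcpt1, the chymase of mucosal mast cells, was at 0.183 to 4.97 CPM (median 0.429) and 0.561 to 8.21 CPM (median 3.39) (log2FC 2.51 ± 0.56 (SE), adjusted p = 1.52e-04). The groups overlapped for all 3 genes. With the marker sums as covariates, 2 of the 12 were called lower and 2 higher.

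**Figure D2:**
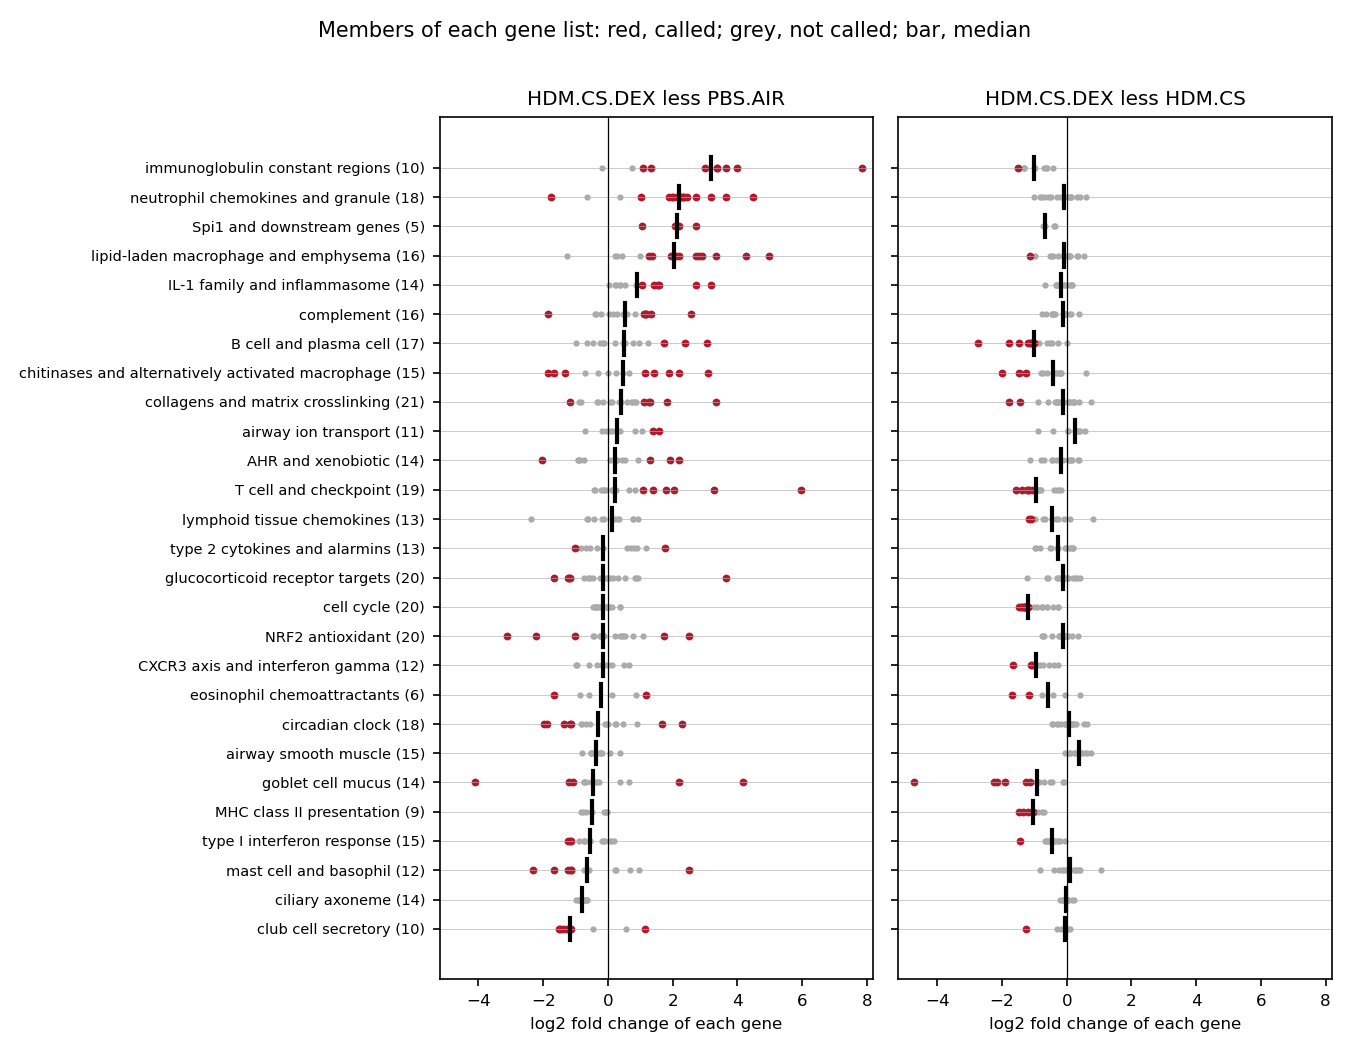
Each row is 1 of the 27 function lists, with the log2FC of every tested member as a point and the list median as a bar, for HDM.CS.DEX less PBS.AIR on the left and HDM.CS.DEX less HDM.CS on the right. Immunoglobulin, neutrophil, Spi1 and lipid-laden macrophage lists have medians above 2 on the left and below 0 on the right, while the cell cycle list has a median of -0.15 on the left and -1.21 on the right.

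Another set of genes lay near the untreated control (PBS.AIR) in HDM.CS.DEX airways and was lower than in HDM.CS. The cell cycle list was the clearest, with 0 of 20 genes called against PBS.AIR (1 higher and 1 lower unadjusted, median -0.15) and 11 called lower against HDM.CS (median -1.21), where 1.75% of all genes were called lower. Mki67, a marker of dividing cells, was at 10.8 to 30.9 CPM (median 19.4) in PBS.AIR, 45.5 to 78 CPM (median 56.3) in HDM.CS and 9.36 to 52 CPM (median 19.4) in HDM.CS.DEX airways. Its change against HDM.CS passed (log2FC -1.48 ± 0.21 (SE), adjusted p = 7.48e-07), while against PBS.AIR the difference was 0.12, 95% confidence interval -0.34 to 0.58. Genes of antigen presentation on MHC class II gave 0 calls among 9 against PBS.AIR, where 4 were lower by less than the limit (5 unadjusted), and 5 were called lower against HDM.CS, where all 9 had an adjusted p-value under 0.05. H2-Eb1 was at 202.2 to 350.1 CPM (median 239), 269.9 to 454 CPM (median 342) and 109.7 to 249 CPM (median 153.6) in these groups (log2FC -1.19 ± 0.18 (SE), adjusted p = 1.68e-06 against HDM.CS), and Cd74, the invariant chain gene, differed from PBS.AIR by -0.02, 95% confidence interval -0.29 to 0.24. Genes of the CXCR3 and interferon gamma axis were alike in this respect, with 0 of 12 genes called against PBS.AIR (3 lower unadjusted, and 1 called lower with either other tool) and 3 lower against HDM.CS. Cxcl9, which attracts T cells through CXCR3, had a log2FC of -1.65 against HDM.CS (adjusted p = 0.0437) and differed from PBS.AIR by -0.19, 95% confidence interval -1.43 to 1.06. The steroid alone (PBS.AIR.DEX less PBS.AIR) called 6 of the 9 MHC class II genes lower (median -1.21) and 5 of these 12 (median -1.22), and 0 higher. The MHC class II sum was 576.5 to 1145 CPM (median 784.7) in PBS.AIR.DEX and 1073 to 2036 CPM (median 1440) in HDM.CS.DEX. Levels near PBS.AIR are thus not levels near the control with the steroid.

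Lymphocyte genes divided between the 2 patterns. In the T cell list, 6 of 19 were called higher against PBS.AIR and 6 lower against HDM.CS (medians 0.21 and -0.96). Genes of the receptor complex common to T cells did not pass against PBS.AIR (Cd3e 0.17, 95% confidence interval -0.49 to 0.84), and the genes called higher were Il17a, Il21 (3.27), the checkpoint genes Tigit (2.04), Pdcd1 (1.80) and Ctla4 (1.40), and Il10 (1.10). Pdcd1, which codes for PD-1, was at 0.426 to 3.1 CPM (median 0.794) in PBS.AIR, 5.35 to 9.91 CPM (median 6.93) in HDM.CS and 1.96 to 4.99 CPM (median 2.99) in HDM.CS.DEX airways, and it fell against HDM.CS (log2FC -1.23 ± 0.21 (SE), adjusted p = 2.31e-05) while remaining above PBS.AIR (log2FC 1.80 ± 0.31 (SE), adjusted p = 1.99e-06). Tigit (-1.39) and Ctla4 (-1.17) fell against HDM.CS as well. In the B cell list, 10 of 17 were called lower against HDM.CS, among them Ms4a1 (-1.20), which codes for CD20 and differed from PBS.AIR by -0.45, 95% confidence interval -1.18 to 0.28. The 3 genes of this list called higher against PBS.AIR were those of antibody-secreting cells named above. With the steroid alone, 8 of the 19 T cell genes and 8 of the 17 B cell genes were called lower and 0 higher. The counts for T and B cell genes moved with the control libraries and the covariates. Without the PBS.AIR libraries 1 and 4, 7 T cell genes and 4 B cell genes were called higher against PBS.AIR. With the 3 marker sums as covariates, 13 T cell genes and 6 B cell genes were called higher against PBS.AIR.

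The steroid lowered part of the mucus genes. Of 14 goblet cell genes, 6 were called lower against HDM.CS (median -0.93), and against PBS.AIR 2 were higher and 3 lower (median -0.47). Muc5ac, the inducible gel-forming mucin, was at 3.66 to 40.9 CPM (median 5.84) in PBS.AIR, 11.3 to 103.9 CPM (median 24.4) in HDM.CS and 3.54 to 11.8 CPM (median 6.47) in HDM.CS.DEX airways (log2FC -2.16 ± 0.40 (SE), adjusted p = 6.81e-05 against HDM.CS), and it differed from PBS.AIR by -0.33, 95% confidence interval -1.23 to 0.58. Clca1, a secreted protein of goblet cells, was at 11.9 to 974 CPM (median 31.9) in PBS.AIR, 3.69 to 484 CPM (median 60.2) in HDM.CS and 0.0922 to 16.6 CPM (median 3.13) in HDM.CS.DEX airways (log2FC -4.11 ± 1.04 (SE), adjusted p = 8.46e-04 against PBS.AIR). With the steroid alone it was at 0.0592 to 6.4 CPM (median 3.31) (log2FC -4.53 against PBS.AIR, adjusted p = 0.00336). Itln1, a lectin of mucus cells, remained higher (log2FC 2.19 ± 0.44 (SE), adjusted p = 3.00e-05) although it fell against HDM.CS (-1.14), and pendrin is described above. Type 2 cytokine genes gave 1 call in each direction among 13, Csf2 (1.77) and Il1rl1 (-1.02), the receptor of interleukin-33, and 0 calls against HDM.CS (4 lower unadjusted). Il13, which drives mucus, was at 0 to 0.181 CPM (median 0.0167) in PBS.AIR, 0 to 0.515 CPM (median 0.214) in HDM.CS and 0 to 0.172 CPM (median 0.0748) in HDM.CS.DEX airways and did not pass against PBS.AIR (1.18, 95% confidence interval -0.07 to 2.43). Of 7 eosinophil genes, 4 were called lower against HDM.CS, such as Ear1 (-2.70) and the chemokine receptor gene Ccr3 (-1.16), and against PBS.AIR 1 was higher and 2 were lower, with Ear1 at -1.34.

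A further set lay below control in the treated airways. The 7 erythroid genes were called lower without exception against PBS.AIR (median log2FC -3.65) and against HDM.CS (-3.44), with 0 called between HDM.CS and PBS.AIR. Their summed level was 2765 to 11150 CPM (median 6150) in PBS.AIR, 3158 to 7866 CPM (median 6062) in HDM.CS, 399 to 3008 CPM (median 1407) in PBS.AIR.DEX and 163.2 to 1925 CPM (median 479) in HDM.CS.DEX airways. Hbb-bs (ENSMUSG00000052305.5, chromosome 7 from 103826534 to 103828096, minus strand), an adult beta globin gene, was at 1427 to 6307 CPM (median 3580) in PBS.AIR and 90.5 to 1057 CPM (median 252) in HDM.CS.DEX airways (log2FC -3.65 ± 0.37 (SE), adjusted p = 3.43e-13), and no treated library reached the control range. With the steroid alone, all 7 were also called lower (median -2.39). HDM under the steroid without smoke (HDM.AIR.DEX less PBS.AIR.DEX) called 5 of the 7 lower (median -1.53). In HDM.AIR airways, with neither smoke nor steroid, the sum was 1305 to 3654 CPM, below PBS.AIR with overlap, so low values were not limited to groups with the steroid. Alas2 (-3.79), the haem synthesis enzyme of red cell precursors, was lower with overlap. The globin genes are close copies in pairs, so reads could be shared between Hba-a1 and Hba-a2 and between Hbb-bs and Hbb-bt. Dntt, the terminal transferase of immature lymphocytes, was at 0.0336 to 1.52 CPM in PBS.AIR libraries and held 1 count over all HDM.CS.DEX libraries, a ratio of 187.7 between the summed levels (95% counting interval 33.3 to 7451).

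Known targets of the glucocorticoid receptor gave 0 calls between the exposed groups with and without the steroid. Of 20 genes tested, 0 were called between HDM.CS.DEX and HDM.CS (3 lower unadjusted, and 1 called lower with either other tool), and against PBS.AIR 1 was higher, which was Lcn2, and 4 were lower. Fkbp5, a target used to read receptor activity, was at 15.9 to 69.8 CPM (median 22.6) in PBS.AIR, 40.5 to 61.8 CPM (median 46.1) in HDM.CS and 35.9 to 84.7 CPM (median 39.9) in HDM.CS.DEX airways, with a change of -0.12, 95% confidence interval -0.53 to 0.30 against HDM.CS. Tsc22d3, which codes for the steroid-induced leucine zipper protein GILZ, was at 105.6 to 407 CPM (median 186.4), 86.4 to 217 CPM (median 120.8) and 60.2 to 97.3 CPM (median 85.1), lower than PBS.AIR in every treated library (log2FC -1.20 ± 0.23 (SE), adjusted p = 8.46e-06). The others called lower were Zbtb16 (-1.66), Map3k6 (-1.23) and Per1 (-1.18), and Per1 is a clock gene as well. Clock genes had 2 calls higher and 5 lower among 18, and 0 against HDM.CS (1 higher unadjusted). Nr1d1, a repressor whose level swings with the hour of the day, was at 2.68 to 6.33 CPM in PBS.AIR replicates 1 to 6 and at 44 to 54.7 CPM in replicates 7 to 10, while HDM.CS.DEX libraries ranged from 10.5 to 160.3 CPM. The hour of tissue collection is not given in the labels, and its part in these differences was not tested. With Nr1d1 as a covariate, added after the data had been seen, 902 genes were called higher and 981 lower against PBS.AIR. Genes of the type I interferon response were called lower for 3 of 15, Ifit1 (-1.14), Mx2 (-1.23) and Ifi44 (-1.19), with a median of -0.56, and with the 3 marker sums as covariates 0 were called. Against HDM.CS, 1 of the 15 was called lower (median -0.46). The steroid alone (PBS.AIR.DEX less PBS.AIR) called 3 of the 15 lower (median -0.66). HDM.CS less PBS.AIR had a median of -0.11 for this list, with 2 genes higher and 3 lower at an adjusted p-value under 0.05.

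By the rule for named genes, the 5 genes with the smallest adjusted p-values among those higher in HDM.CS.DEX than in HDM.CS were Serpinb9b (1.42), a granzyme inhibitor gene, Pnmt (2.53), the enzyme that makes adrenaline, Dusp26 (1.06), a phosphatase gene, Mmp7 (1.25), the epithelial matrilysin, and Cers3 (1.02), a ceramide synthase gene. Pnmt was at 0.109 to 0.936 CPM (median 0.394) in PBS.AIR, 0.0613 to 0.174 CPM (median 0.111) in HDM.CS and 0.268 to 1.7 CPM (median 0.773) in HDM.CS.DEX airways (log2FC 2.53 ± 0.48 (SE), adjusted p = 9.27e-05). Among the lower genes of the same rule were Hbb-bt (-3.88), Alas2 (-3.84), Hba-a1 (-3.44) and Itgae, the integrin CD103 of tissue-resident lymphocytes and dendritic cells, which was at 8.76 to 14.4 CPM (median 11.8) in PBS.AIR, 13.7 to 21.5 CPM (median 19) in HDM.CS and 3.55 to 10.7 CPM (median 6.47) in HDM.CS.DEX airways (log2FC -1.52 ± 0.16 (SE), adjusted p = 2.23e-11). The count of 12 higher genes was small and varied with the test, as given in the closing section.

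Other groups of the series that share no library with the 2 groups compared show what each component gave under its own controls. HDM under the steroid without smoke (HDM.AIR.DEX less PBS.AIR.DEX) called 1379 genes higher (7.65% of the genes tested) and 1073 lower (5.96%). Of the 926 genes higher in HDM.CS.DEX than in PBS.AIR airways, 703 were among them, which is 75.9% of the first list and 51% of the second, and 2 went the other way. Of the 931 lower genes, 587 were also lower there (63.1% of the first list and 54.7% of the second), and 13 were higher. Smoke under the steroid called far fewer genes, and it shared 83 of its higher genes (77.6% of them, or 8.96% of the 926) and 51 of its 62 lower genes (82.3%, or 5.48% of the 931). Over the 926 genes, the median log2FC was 1.74 with HDM under the steroid and 0.38 with smoke under the steroid, and over the 931 genes it was -1.29 and -0.37, while the medians over all genes were -0.02 and 0.00. The steroid in HDM mice without smoke (HDM.AIR.DEX less HDM.AIR) called 97 genes higher (0.538%) and 868 lower (4.82%), and of the 926 genes it lowered 215 (23.2%, or 24.8% of the 868) and raised 20.

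Values of single genes under each exposure are set side by side, and the difference between the 2 effects was not tested for any of them. Mmp12 was higher with HDM under the steroid (5.72) and with smoke under the steroid (1.64), as were Lcn2 (2.65 and 1.60), Saa3 (4.73 and 2.90) and Cxcl5 (3.35 and 1.91). Il17a and Ighg1 were called with HDM only among these 2 tests (7.63 and 8.58, against 0.99 and 0.42 with smoke). Chit1, the chitotriosidase of macrophages, had a log2FC of -0.15 with HDM and of 2.76 with smoke. Scgb1a1 was lower with HDM (-1.35) and did not pass with smoke (-0.24), and Gsta2 was at -2.47 and -0.41. In the lists, HDM under the steroid called 11 of the 16 lipid-laden macrophage genes and 13 of the 18 neutrophil genes higher, and smoke under the steroid 2 and 7.

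The same comparison in the parenchyma tested whether these changes belonged to the airway. There, HDM.CS.DEX less PBS.AIR called 1382 of 18250 genes higher (7.57%) and 737 lower (4.04%), and the difference between the changes, tested as an interaction over the 160 libraries at 11 weeks, was called with a larger value in the airway for 0.745% of the genes and a smaller one for 1046 (5.73%). Gpnmb and Mmp12 did not pass this test. Gpnmb had a log2FC of 4.37 in the parenchyma (difference 0.62, adjusted p = 0.197), and Mmp12 of 3.58 (difference 0.68, adjusted p = 0.188). Epithelial genes passed it. Of the 10 club cell genes, 7 had a smaller value in the airway, and the list medians were -1.17 for airways and -0.03 for parenchyma. The same was called for 12 of the 14 ciliary genes, with medians of -0.79 and 0.60. Foxj1 had a log2FC of 0.73 in the parenchyma (adjusted p = 2.85e-05) and of -0.78 in the airway, both short of the fold limit (difference -1.51, adjusted p = 6.21e-08), and 0 of the 14 ciliary genes were called in the parenchyma. The cilia marker sum was 1295 to 2323 CPM in PBS.AIR and 784.9 to 1187 CPM in HDM.CS.DEX airways (medians 1679 and 993.6), without overlap, and 629.3 to 761.8 and 528.4 to 808 CPM in the parenchyma (medians 693.7 and 720), with overlap.

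By the naming rule, genes with the smallest adjusted p-values for this difference on the low side were the metal transporter gene Slc11a2 (-1.22), the dermokine gene Dmkn (-2.21), Pigr (-2.06) and the cytosolic phospholipase A2 gene Pla2g4a (-1.30). Pigr, the receptor that carries dimeric immunoglobulin A across epithelium, rose in both tissues but by 1.52 in airways and by 3.58 in parenchyma. On the high side were the contactin gene Cntn1 (1.60), the protocadherin gene Pcdh12 (1.17), the growth factor receptor gene Fgfr4 (1.50), the sulfotransferase gene Chst2 (1.04) and Foxf2 (1.10), a mesenchymal factor. The erythroid fall was common to both tissues, with list medians of -3.65 and -4.01 and 0 of the 7 genes called for the difference. Ltf, the lactoferrin gene of neutrophil granules and glands, was called higher in the parenchyma (2.31) and not in the airway (-0.64, 95% confidence interval -1.46 to 0.18), with a difference of -2.95 (adjusted p = 2.48e-06). The difference was called larger in the airway for 1 and smaller for 2 of the 18 neutrophil genes, and smaller for 1 of the 16 lipid-laden macrophage genes.

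**Figure D3:**
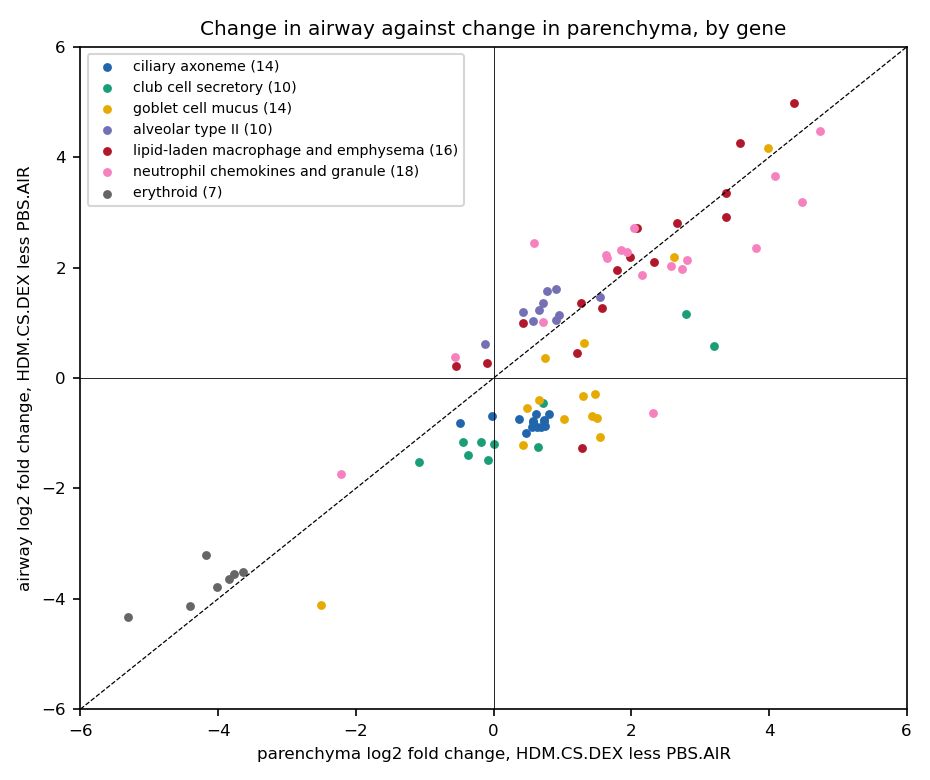
Each point is 1 gene of 7 lists, with its log2FC (HDM.CS.DEX less PBS.AIR) in the parenchyma on the x axis, from the fit of 160 libraries, and in the airway on the y axis, from the fit of 80 airway libraries. The 7 erythroid genes lie at the lower left and most neutrophil and lipid-laden macrophage genes at the upper right, with Ltf off the diagonal, and the ciliary genes lie below 0 in the airway and, all but 2, right of 0 in the parenchyma.

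Markers of other tissues were examined for shifts in dissection or makeup, which cannot be told apart from changes of expression within cells. Of 10 alveolar type II genes, 9 were called higher in HDM.CS.DEX than in PBS.AIR airways (median log2FC 1.22), and with the steroid alone 2 were called higher (median 0.71). In the parenchyma 1 was called higher (median 0.75), and the median sum was 25150 CPM in PBS.AIR and 32250 CPM in HDM.CS.DEX. The tissue difference had a median of 0.61, with 0 of the 10 genes called for it. The rise in this list was therefore not limited to the airway, and its source was not tested. Sftpc, the surfactant protein specific to these cells, differed by 0.61 (adjusted p = 0.0275). Cardiac muscle genes, which the pulmonary veins carry in mice, were called lower for 13 of 14 (median -1.31), cartilage genes for 8 of 12 (median -1.75) and adipose genes for 5 of 11 (median -1.37). The cartilage sum was 47.3 to 190 CPM (median 78.8) in PBS.AIR and 19.4 to 72.8 CPM (median 39) in HDM.CS.DEX airways. With the alveolar type II, cardiac and adipose sums as covariates, 1039 genes were called higher and 478 lower, so the number of genes below control depended on these sums while the number above did not fall. Under the same fit, 14 of 18 neutrophil genes and 9 of 10 immunoglobulin constant regions were called higher and 7 of 7 erythroid genes lower.

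**Figure D4:**
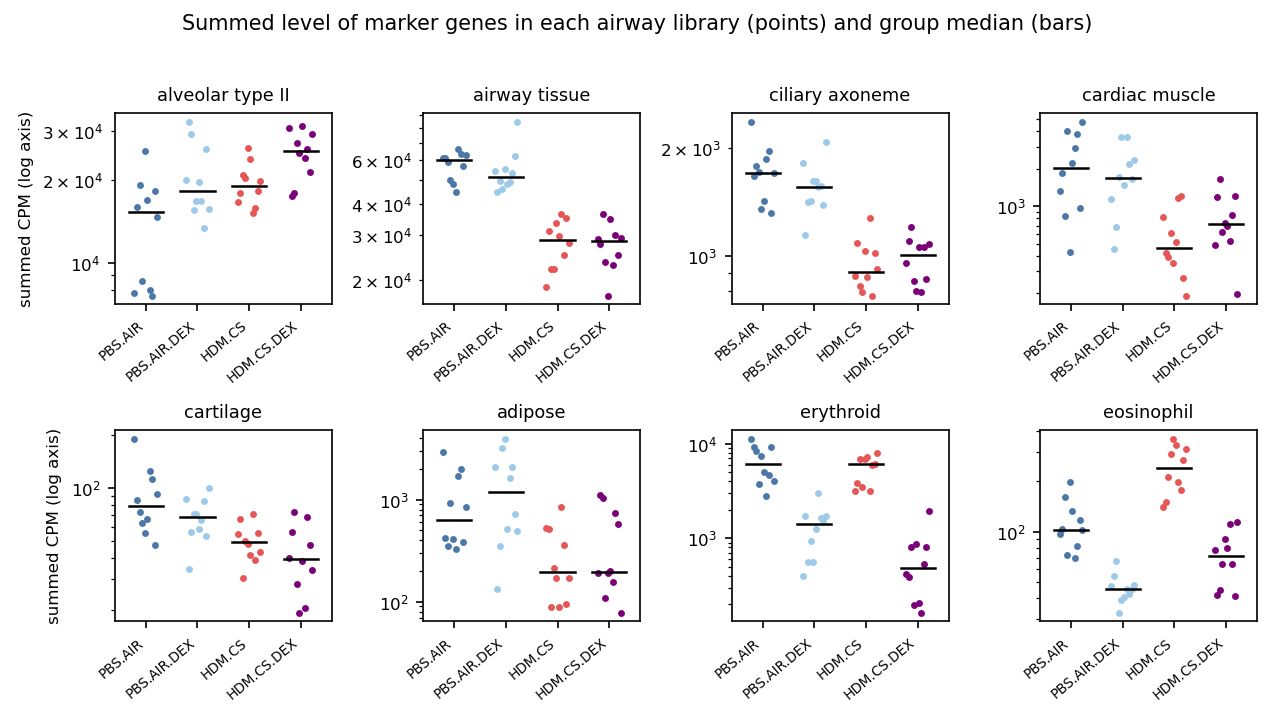
Each point is 1 airway library, with the summed CPM of a marker list on a log axis for PBS.AIR, PBS.AIR.DEX, HDM.CS and HDM.CS.DEX (10 libraries each; bars mark medians). The airway tissue sum is lower in HDM.CS.DEX than in every PBS.AIR library, the alveolar type II sum is higher with overlap, and the erythroid sum has its lowest median in HDM.CS.DEX, followed by PBS.AIR.DEX.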

How the data were processed

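RNA of blunt-dissected airways and parenchyma was sequenced as 100 base single reads, and the authors deposited 1 table of estimated counts for 43346 gene identifiers (mm10). The submitters' processing notes name bcl2fastq 2.20.0.422, STAR 2.5.1b, RSEM 1.2.31 and kallisto 0.44.0, without saying which made the table. Since 20.3% of the values above 0 had decimals, they were rounded. A gene was kept where 9 or more libraries reached the CPM that 10 counts make in a library of median size. Genes were scaled by TMM (edgeR 4.0.16) and tested with limma-voom (limma 3.58.1, R 4.3.3), with 1 mean per group over the 80 airway libraries at 11 weeks (8 groups, 18015 genes), and for the tissue difference over 160 libraries (18250 genes). Adjusted p-values are Benjamini-Hochberg values over all genes of a fit. Log2 fold changes come from this model, and a gene with counts of at most 3 in each library of a group was given as a bound from 3 counts per library. Alternatives were DESeq2 1.42.0, edgeR's quasi-likelihood test, other filters, sample quality weights, the 20 libraries alone and leaving out single libraries. Counts were also simulated for 17669 genes of this comparison, with 1 fixed dispersion for all genes. There, 95.9% of 49 genes lowered by 1 on the log2 scale, and 100% of the 49 raised by 1, had the right direction at an adjusted p-value under 0.05. The fold limit was not applied, and the spread of real genes differs from gene to gene. These shares therefore do not give the sensitivity of the calls in this report. Positions are those of GENCODE M21 (GRCm38), to which 42462 identifiers were matched without their version, 23106 of them with the same version, and promoters are those of RefSeq (GRCm38.p6).

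The groups compared, the 27 gene lists and 14 marker lists were chosen with earlier results of these data known. The text names the 8 largest rises and 8 largest falls by log2 fold change among called genes without overlap and a mean of at least 1 CPM in the higher group, without pseudogenes and antigen receptor segments. It also names up to 3 members per gene list by adjusted p-value, the 5 smallest adjusted p-values per direction for the steroid and for the tissue difference, the 2 most abundant genes of a marker list, and Spi1 with Il1rn, Ptafr, Itgax and Clec7a. Other genes were picked as examples after their values were seen, and a few genes that the rule names are not reported here. Members of a list do not vary independently of each other. The number of libraries that came from each mouse is not given in the sources used here.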

Additional observations from a re-analysis of the deposited data

Results flagged for a closer look

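The genes named for the largest changes, for the tests of the steroid and of the tissue difference, and with Spi1 were screened here. Their levels and the marker sums were examined in the 10 PBS.AIR and the 10 HDM.CS.DEX airway libraries. Genes named only as members of a list were not screened. Dixon's ratio, the gap to the nearest neighbour over the range, was taken on the log2(CPM + 1) scale in each set of 10 values. In 3 of these sets a library passed its 95% limit, where a rate of 5% would give about 5.2 sets. Il17a reached 0.721 CPM in PBS.AIR replicate 7, where the next library was at 0.229 CPM, and Tm4sf19 reached 0.382 CPM in the same library, against 0.158 CPM in the next. Slc11a2, a metal transporter gene, was at 106.8 CPM in HDM.CS.DEX replicate 10, against 88.6 CPM in the next library. The causes were not tested.

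Of the named genes screened here, 10 had a change from PBS.AIR to HDM.CS.DEX that differed between airway and parenchyma. The limits were an adjusted p-value under 0.05 in the limma-voom test of the difference itself and a difference of at least 1 on the log2 scale. All of them but Pnmt had been named for their small adjusted p-values in this same test, so that their passing was fixed by the choice. Airway change less parenchyma change was 1.99 on the log2 scale for Pnmt, 1.602 for Cntn1, 1.17 for Pcdh12, 1.505 for Fgfr4, 1.04 for Chst2 and 1.10 for Foxf2. It was -1.22 for Slc11a2, -2.21 for Dmkn, -2.06 for Pigr and -1.30 for Pla2g4a. The alveolar type II marker sum was higher in treated airways. A shift in the makeup of the dissected tissue and a change within cells therefore cannot be told apart here.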

How the results depend on the processing

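The fit of 18015 genes called 926 genes higher and 931 lower against PBS.AIR, and 12 higher and 315 lower against HDM.CS. A filter at 10 CPM, which left 11960 genes in the airway fit, called 476 and 300 against PBS.AIR, and 0 and 1.3e+02 (2 digits) against HDM.CS. Of 12187 genes in the fit of both tissues, the same filter called the airway log2FC above the parenchyma log2FC for 48 and below it for 473. Beside the 0 genes higher against HDM.CS from limma-voom with that filter, 1110 genes were higher at an unadjusted p under 0.05. The count of genes higher against HDM.CS was 20 with DESeq2, 17 with edgeR's quasi-likelihood test, 26 without a filter, 19 in the fit of 160 libraries and 28 with sample quality weights, which called 518 lower. With the 3 marker sums as covariates, 478 genes were lower and 1039 higher against PBS.AIR. Under that fit 18 named genes changed sign against PBS.AIR. For Fgfr4, Col11a2, Fabp4 and Krt15 the adjusted p was under 0.05 in neither fit, and the other 14 went to log2FC of 0.37 for Chrm2, 0.12 for Smtn, -0.068 for E2f1, -0.11 for Foxf2, 0.013 for Pla2g4a, -0.16 for Ager, -0.18 for Clic5, -0.43 for Sftpc, 0.09 for Myh6, 0.055 for Tnnt2, 0.75 for Tnnt3, 0.90 for Krt5, -0.35 for Pmp22 and -0.36 for Cdh5. Sftpc, Myh6 and Tnnt2 belong to the sums used as covariates, and the cause was not tested for the rest. Leaving out single libraries gave 901 (without PBS.AIR replicate 10) to 969 (without HDM.CS.DEX replicate 3) genes higher and 831 (without PBS.AIR replicate 8) to 1029 (without HDM.CS.DEX replicate 2) lower. Without both PBS.AIR replicates 1 and 4, chosen after seeing the data, 924 were higher and 833 lower. Without regard to the fold limit, 7 named genes lost and 3 gained an adjusted p-value under 0.05 with DESeq2. The same counts were 7 and 2 with edgeR's test and 6 and 1 with the 20 libraries alone, with 0 changes of sign in each. No paired analysis was possible because the labels give no replicate number that groups share. With 10 sets of consecutive library codes (1 library per group each) as a term, chosen after seeing the data, 915 genes were higher and 1066 lower against PBS.AIR.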

Other observations

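Several lists that no comparison above describes held few calls. Of 13 genes for chemokines of lymphoid tissue, 0 were called against PBS.AIR with limma-voom, edgeR or DESeq2 (3 higher at an unadjusted p under 0.05) and 2 were lower against HDM.CS. Of 6 eosinophil chemoattractant genes, 1 was higher and 1 lower against PBS.AIR (median log2FC -0.23), and 2 were lower against HDM.CS. Of 12 endothelial cell genes, 0 were called against PBS.AIR with any of these tools (median -0.05), with 1 higher and 2 lower at an adjusted p-value under 0.05. The 10 alveolar type I cell genes had a median of 0.61, with 1 called higher. Markers of tissue next to the airway were called lower for 2 of 9 Schwann cell genes (median -0.82), lower for 1 and higher for 3 of 7 thyroid genes, lower for 1 and higher for 2 of 8 squamous epithelial genes, lower for 1 and higher for 1 of 8 skeletal muscle genes, and lower for 1 of 5 thymocyte genes. Among the 12 airway tissue markers, 1 was higher and 3 were lower.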
